A study of Homo sapiens with 30 samples.

Results

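MDA-MB-231 is a human triple-negative breast cancer cell line of mesenchymal character, and its chromatin was examined by ChIP-seq at the places where SAP30 and SIN3B were found together, without SIN3A, away from gene start sites. A region entered this set when SAP30 and SIN3B each had peak summits in both replicates of parental cells, SIN3A had none that both replicates shared, and the span of its summits lay more than 1000 bp from every annotated start of a coding or lncRNA gene. The rule kept 1910 of 24456 merged regions of the 3 proteins, or 7.81%. It kept 29.9% of the 6385 regions with SAP30 and SIN3B but without SIN3A, the other 4475 being at promoters, and 16.9% of the 11292 merged regions that were distal by the same distance. The regions were thus chosen by where the 3 proteins had peaks in the parental line, and those values are given below only as a description. RNA polymerase II (Pol II), trimethylated lysine 4 of histone H3 (H3K4me3) and acetylated lysine 9 of histone H3 (H3K9Ac) took no part in the choice.

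There were 18 peak lists, 2 libraries for each target in each line. The 3 proteins were mapped in the parental line alone, and the 3 marks (Pol II is called a mark here for brevity) in it and in SAP30-KO1, a derivative in which CRISPR/Cas9 targeted the SAP30 gene. SAP30-KO1 is a mixture of several single-cell knockout clones of the same line, made by delivery of a guide RNA vector and puromycin selection. The labels give 1 culture medium for both lines. No vector control line was analysed here, so the loss of SAP30 cannot be told apart from vector delivery, drug selection and cloning. No SAP30 ChIP library of SAP30-KO1 was analysed here, so the loss of SAP30 from these regions was not measured. The SIN3A lists were the shortest, with 11115 and 10861 peaks, against 26307 and 22298 for SIN3B and 35001 and 35007 for SAP30. The lists held 20736 to 23342 peaks for Pol II, 20735 to 24079 for H3K4me3 and 50807 to 54622 for H3K9Ac. They carry peak positions and scores but no read counts, so depth is unknown. A region without a peak, of SIN3A or of a mark, is thus one that did not pass the peak caller's threshold. Of 10 mesenchymal marker genes, 8 had promoter H3K4me3 and Pol II in both parental libraries, among them VIM, CD44, FN1, AXL and ZEB1, whereas SPARC and TWIST1 had neither. Of 10 luminal and epithelial markers, 7 had H3K4me3 but only KRT19 and EPCAM had Pol II.

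SIN3A and SIN3B are paralogous scaffold proteins that assemble histone deacetylase complexes, and SAP30 is a small subunit of those complexes that binds the scaffold. SIN3 complexes are brought to chromatin by transcription factors, mostly at promoters but also at enhancers. Enhancers are distal stretches where transcription factors such as the AP-1 dimers of FOS and JUN proteins bind and where Pol II often makes short RNAs. H3K4me3 is typical of active start sites, and H3K9Ac marks active promoters and enhancers and is a substrate of the deacetylases that SIN3 recruits.

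Windows of 151 bp, centred on the best-ranked SAP30 summit of 9 of the regions, show the kinds of DNA involved. Each region is named after the nearest protein-coding gene, and capitals mark the AP-1 motif TGANTCA, which reads the same on both strands apart from its middle base. Regions of ANXA11 (chr10:81918446-81918596), CHMP6 (chr17:78865981-78866131), JUN (chr1:59347213-59347363), SLC2A1 (chr1:43407496-43407646) and ZMIZ1 (chr10:80516694-80516844) are shown because they carry that motif, 35 bp right of the summit for ANXA11, at -60 bp for CHMP6, and at 37, 29 and 1 bp for JUN, SLC2A1 and ZMIZ1. Regions of DEF8 (chr16:90039303-90039453), SAMD4A (chr14:55240238-55240388) and MZF1 (chr19:59086843-59086993) are shown as windows without it among those with the best SAP30 and SIN3B ranks. A region of H3-7 (chr1:149224569-149224719) is shown because it had one of the strongest Pol II peaks. Coordinates and bases are GRCh37, plus strand, 5′ to 3′.
ANXA11: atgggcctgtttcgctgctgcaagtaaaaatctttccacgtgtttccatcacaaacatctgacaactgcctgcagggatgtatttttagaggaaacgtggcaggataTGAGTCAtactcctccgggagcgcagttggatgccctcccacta
CHMP6: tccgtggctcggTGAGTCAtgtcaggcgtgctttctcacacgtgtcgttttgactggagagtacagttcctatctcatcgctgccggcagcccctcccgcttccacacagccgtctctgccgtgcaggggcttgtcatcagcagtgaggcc
JUN: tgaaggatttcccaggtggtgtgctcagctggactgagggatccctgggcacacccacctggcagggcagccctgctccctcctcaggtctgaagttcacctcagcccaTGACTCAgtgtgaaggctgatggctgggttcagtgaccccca
SLC2A1: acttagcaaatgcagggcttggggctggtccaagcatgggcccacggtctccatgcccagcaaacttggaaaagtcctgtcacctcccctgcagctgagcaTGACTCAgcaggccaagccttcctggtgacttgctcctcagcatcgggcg
ZMIZ1: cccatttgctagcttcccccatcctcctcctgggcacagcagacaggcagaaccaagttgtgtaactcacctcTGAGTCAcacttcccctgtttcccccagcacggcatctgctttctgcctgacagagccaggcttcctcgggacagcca
DEF8: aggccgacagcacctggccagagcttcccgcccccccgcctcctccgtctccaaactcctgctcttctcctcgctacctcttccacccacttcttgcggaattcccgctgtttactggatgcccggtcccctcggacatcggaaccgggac
SAMD4A: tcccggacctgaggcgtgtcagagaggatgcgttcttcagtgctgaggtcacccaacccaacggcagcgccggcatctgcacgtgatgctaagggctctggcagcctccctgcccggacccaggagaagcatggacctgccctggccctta
MZF1: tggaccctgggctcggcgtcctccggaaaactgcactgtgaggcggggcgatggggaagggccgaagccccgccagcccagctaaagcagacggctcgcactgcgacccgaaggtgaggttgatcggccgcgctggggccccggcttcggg
H3-7: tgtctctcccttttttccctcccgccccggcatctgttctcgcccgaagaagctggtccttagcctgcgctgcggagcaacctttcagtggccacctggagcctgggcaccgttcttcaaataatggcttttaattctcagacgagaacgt

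Among the windows without AP-1, the CpG dinucleotide occurred 16 times in that of MZF1, 11 times in that of DEF8, 9 times in that of H3-7 and 8 times in that of SAMD4A. Among those with AP-1, it occurred 10 times in that of CHMP6, 5 times in that of ANXA11, 3 times in that of SLC2A1, 2 times in that of ZMIZ1 and not once in that of JUN, although G and C made up 60.9% of the last. The JUN, SLC2A1 and ZMIZ1 windows, which had the fewest, were added after their values were seen. The regions are divided by CpG content and AP-1 further on.

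By the values that chose them, the regions were places of moderate protein signal. Scores were compared only as a rank within their own list, given as a percent of that list from 0 for the strongest peak to 100 for the weakest. The median region ranked 39.3 and 40.1 in the SAP30 lists and 49.6 and 63.7 in the SIN3B lists. The best-ranked SAP30 and SIN3B summits of a region lay a median of 97 bp apart, and within 100 bp in 976 regions (51.1%). The span from the first to the last summit had a median of 433 bp (quartiles 172 and 947 bp), and 947 regions (49.6%) held a lone summit in each of the 4 lists. SIN3A had no summit in either replicate in 1559 regions (81.6%), a summit in 1 replicate in 349, and summits in both replicates that did not make a shared region in 2. At the distance threshold, the nearest region lay 1010 bp from a start site and 111 lay within 500 bp beyond the threshold, while 81 promoter regions lay within 500 bp inside it, the farthest at 992 bp. The size of the set rests on the SIN3B libraries, since using SIN3B replicate 1 alone gave 4321 regions and replicate 2 alone 2777.

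The 10 regions with the best mean rank over the SAP30 and SIN3B lists lay nearest to DEF8, PPP1R15A, ANXA11, SAMD4A, MZF1, CHMP6, ZNF737, ANXA2R, LRRC24 and TNRC18. Most had a SIN3A summit in a single replicate. Its rank was 18.3 at SAMD4A, 25.6 at PPP1R15A and ANXA11, 25.9 at TNRC18, 31.7 at ZNF737, 57.3 at CHMP6 and 99.9 at DEF8. Only the MZF1, ANXA2R and LRRC24 regions had no SIN3A summit in either replicate. Pol II was present in all 4 libraries at 8 of them, H3K4me3 at 6 and H3K9Ac at 9. The exceptions were not alike. The region in an intron of ANXA11, an annexin gene, ranked 2.75 and 3.28 for SAP30 and had no Pol II or H3K4me3 peak in any library, with H3K9Ac at ranks of 39.2 and 55.7 in parental cells and 42.6 and 69.7 in SAP30-KO1. The region at PPP1R15A, a stress-induced phosphatase regulator gene, had Pol II at ranks of 66.1 and 51.6 against 66.3 and 55.1 and no H3K4me3. The intronic region of TNRC18 had some of the strongest H3K9Ac, at ranks of 2.02 and 0.832 in parental cells and 4.03 and 1.83 in SAP30-KO1, which overlapped. At the DEF8 and MZF1 regions, whose CpG-rich windows are printed above, all 3 marks were in all 12 libraries.

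H3K9Ac covered nearly all of the regions, and Pol II and H3K4me3 each covered about as many as they left bare. A summit within 1000 bp of the summit span was counted as present. H3K9Ac was present at 91.8% and 92.1% of the regions in parental cells and at 91.7% and 92.3% in SAP30-KO1. Pol II was present at 51.9% and 59.5% in parental cells and at 43.4% and 37.5% in SAP30-KO1, and H3K4me3 at 46.4% and 47.0% against 42.4% and 41.6%. Both SAP30-KO1 libraries were thus below both parental libraries for Pol II and H3K4me3, and the lines overlapped for H3K9Ac.

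**Figure D1:**
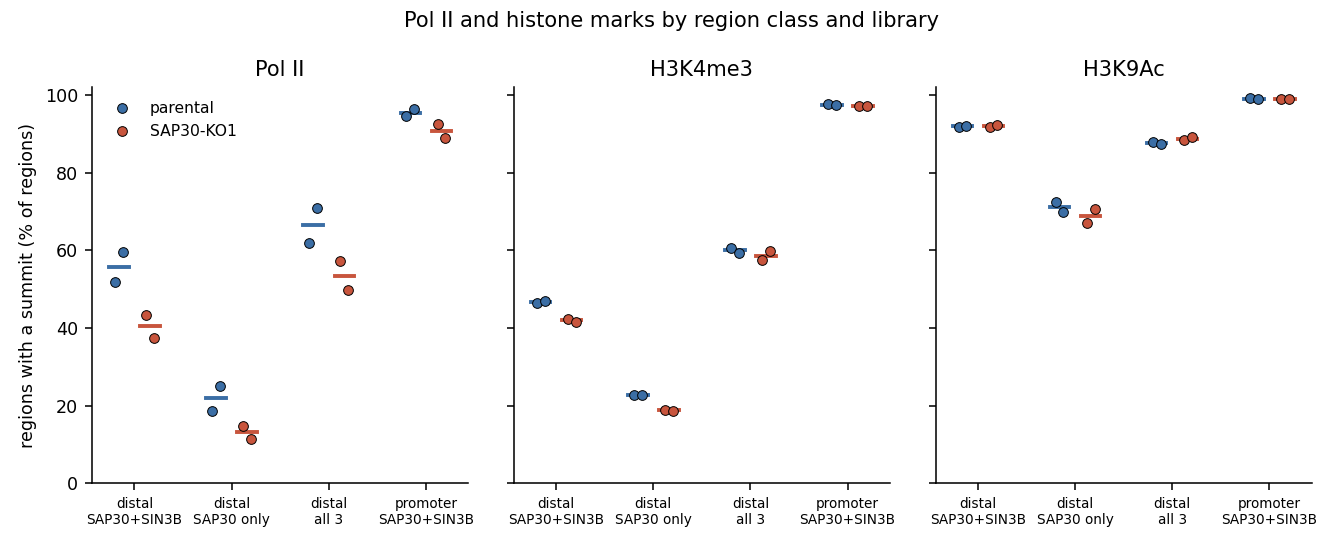
Share of regions with a peak of Pol II, H3K4me3 or H3K9Ac (percent, y axis) in each library of parental and SAP30-KO1 cells, for the 1910 distal SAP30 and SIN3B regions and the 3 sets they are compared with. Points are libraries and bars are means of 2. Pol II in the distal SAP30 and SIN3B regions lay at 51.9% and 59.5% in parental cells and at 43.4% and 37.5% in SAP30-KO1, while H3K9Ac stayed between 91.7% and 92.3%.

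For Pol II the mean was 55.7% ± 5.33 (SD, n = 2) in parental cells and 40.4% ± 4.11 (n = 2) in SAP30-KO1, a difference of -15.3 points and a ratio of 0.726. For H3K4me3 it was 46.7% ± 0.444 against 42.0% ± 0.555, a difference of -4.69 points. For H3K9Ac it was 92.0% ± 0.222 against 92.0% ± 0.370, a difference of 0 points. With 2 libraries against 2, an exact two-sided permutation test cannot go below p = 0.33, which it gave for Pol II and H3K4me3 (0.5 adjusted over the 3 marks), so neither difference can be called. The Pol II difference shrank to -2.57 points when only the better-ranked 50% of each mark list was used, and the H3K4me3 difference to -1.91 points when the H3K4me3 lists were cut to the length of the shortest. GEO's labels do not say whether the replicates came from separate cultures, so their spread may be technical.

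Against distal regions with SAP30 alone, which are the most alike by position, the regions carried all 3 marks more often in every library. Alone means without SIN3A or SIN3B summits that both replicates shared. Within 1000 bp, SIN3B had a summit in replicate 1 at 2328 of these SAP30-only regions (26.3%) and in replicate 2 at 782 (8.85%). Pol II was present at 18.7% and 25.1% of the 8841 SAP30-only regions in parental cells and at 14.8% and 11.5% in SAP30-KO1, and the distal SAP30 and SIN3B regions exceeded them by a mean of 30.6 points (range over 4 libraries 26.1 to 34.4), or 2.58-fold in parental cells and 3.10-fold in SAP30-KO1. The excess was 23.6 points (23.1 to 24.3) for H3K4me3 and 22.0 points (19.4 to 24.7) for H3K9Ac. Each difference had the same sign in 4 of 4 libraries, and the exact sign-flip test over libraries gave p = 0.125, the smallest value 4 libraries allow. The median best SAP30 rank was 35.8 for the regions and 53.7 for SAP30-only regions, and their summit spans differed too, with a median of 57 bp in the latter. With SAP30-only regions standardised to the same SAP30 ranks the excess in Pol II was 25.3 points, that in H3K4me3 17.8 and that in H3K9Ac 18.0, and with every region reduced to 1000 bp around its best SAP30 summit it was 29.6, 22.0 and 20.3 points.

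Promoter regions with the same proteins stood at the other end. At the 4475 promoter regions with SAP30 and SIN3B but without SIN3A, Pol II was present at a mean of 95.5% in parental cells, H3K4me3 at 97.5% and H3K9Ac at 99.1%, so that the distal regions differed by -45.0, -53.0 and -7.04 points over the 4 libraries (p = 0.125 each, exact sign-flip test). The 231 distal regions with all 3 proteins carried Pol II at a mean of 66.5% and H3K4me3 at 60.0%, and the regions without SIN3A differed from them by -11.9 and -14.9 points. H3K9Ac went the other way, 3.79 points higher at the regions without SIN3A and higher in 4 of 4 libraries (p = 0.125 for each of the 3 marks, exact sign-flip test). The Pol II and H3K4me3 differences reversed to 4.77 and 0.916 points when only the better-ranked 50% of the SAP30, SIN3A and SIN3B lists was used, and that of H3K9Ac reversed to -0.828 points with summits of either replicate and to -0.395 with the better-ranked 50% of the mark lists. By SAP30 rank, which the rule used, parental Pol II ran from 67.2% in the strongest quartile of the regions to 43.9% in the weakest and H3K4me3 from 62.4% to 27.3%, and H3K9Ac was between 89.6% and 93.7% in every quartile.

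Taking as present only what both libraries of a line shared, the marks formed a few recurring combinations. In parental cells H3K9Ac stood alone at 651 regions (34.1%), all 3 marks were found at 595 (31.2%), Pol II with H3K9Ac at 268 (14.0%) and H3K4me3 with H3K9Ac at 173 (9.06%), and 136 had none. In SAP30-KO1 the same counts were 858 (44.9%), 438 (22.9%), 127 (6.65%) and 257 (13.5%), with 172 bare. H3K9Ac alone was thus the commonest state in both lines. Across all 12 mark libraries, 409 regions (21.4%) had every mark and 28 had none of them in any library. H3K9Ac was in all 4 of its libraries at 1596 regions (83.6%), H3K4me3 at 706 and Pol II at 567, whereas 644 regions had Pol II in no library.

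Loss and gain between the lines were then counted region by region, a mark being lost when both parental libraries and neither SAP30-KO1 library had it. Pol II was lost from 151 of 925 regions, 16.3% (exact binomial 95% interval 14.0 to 18.9%, which covers counting error only), beside 8.39% of all Pol II regions and 25.1% of distal Pol II regions. It was gained at 6 of 600 regions, 1.00%, beside 0.878% of all and 4.17% of distal Pol II regions. H3K4me3 was lost from 43 of 814 (5.28%), beside 6.18% and 16.4%, and gained at 3 of 735 (0.408%), beside 1.25% and 3.96%. H3K9Ac was lost from 8 of 1687 (0.474%), beside 4.97% and 7.66%, and gained at 12 of 1680 (0.714%), beside 3.65% and 5.77%. For each mark the share lost was under that of distal regions of the mark as a whole, and for Pol II it was above that of all regions, most of which are promoters. These shares are not strictly alike. The other line was searched within 1000 bp of the protein span here, and of the mark's own span over all or distal regions. Marks also ranked better here, with parental H3K9Ac medians of 25.8 and 26.5 against 41.4 and 43.9 at distal regions, in regions with all 4 libraries. For H3K4me3 they were 55.2 and 57.3 against 63.9 and 65.0. Whether peak strength accounts for the lower losses was not tested. SAP30-only distal regions lost Pol II in 26.5% of cases (24.1 to 28.9%).

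**Figure D2:**
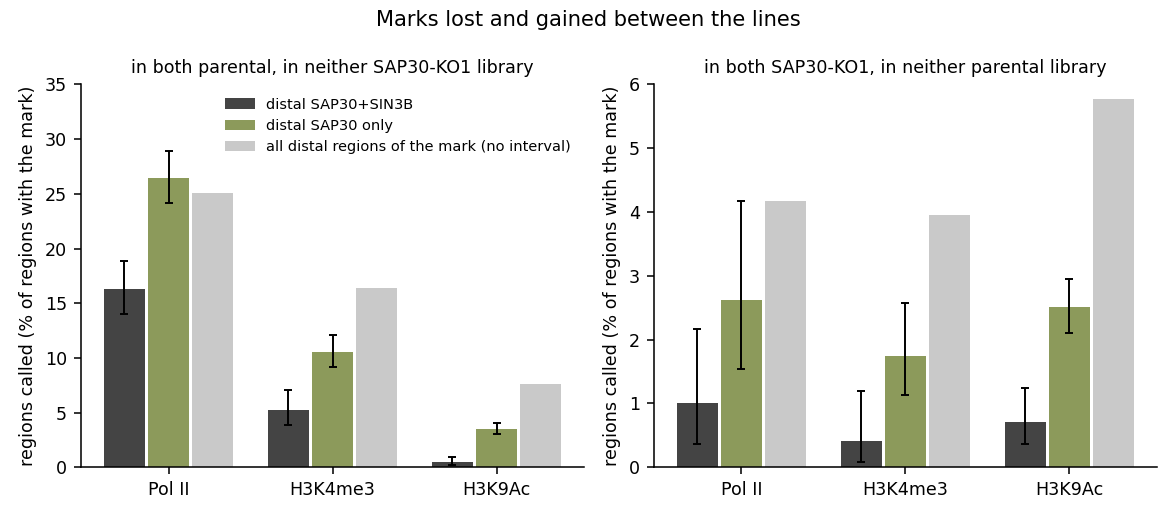
Share of regions that lost or gained Pol II, H3K4me3 or H3K9Ac in SAP30-KO1 (percent of regions with the mark in both libraries of the line that holds it, y axis), with exact 95% binomial intervals for counting error, beside the same share over all distal regions of the mark. Pol II was lost from 16.3% of the distal SAP30 and SIN3B regions against 25.1% of all distal Pol II regions, and H3K9Ac from 0.474% against 7.66%. Distances were taken from the protein span in the former and from the mark's own span in the latter, so the shares are not strictly alike.

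Pol II losses were at weak peaks. The median parental Pol II rank of the 151 regions was 73.1, against 51.1 for regions with Pol II in both parental libraries that were not lost, and 4 losses remained when the parental summits had to be in the better-ranked 50% of their lists. H3K9Ac was kept in all 4 libraries at 131 of the 151 (86.8%) and lost at 1, and H3K4me3 was lost at 6. The 142 coding genes nearest to a lost region included 116 with promoter Pol II in both parental libraries, of which 104 (89.7%) kept it in both SAP30-KO1 libraries and 4 lost it. Over all coding genes, 270 of 11595 lost promoter Pol II.

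The best-ranked of the lost Pol II regions lay in an intron (chr10:80062660-80063375) whose nearest coding start site, that of the ribosomal protein gene RPS24, was 269396 bp away. Its parental Pol II peaks ranked 41.1 and 41.6, no SAP30-KO1 Pol II summit lay within 268978 bp in replicate 1 or 269011 bp in replicate 2, and its H3K9Ac ranks were 12.6 and 19.9 in parental cells and 28.0 and 17.2 in SAP30-KO1. The second, 1617 bp upstream of CCRL2, a chemokine-binding receptor gene, ranked 40.7 and 48.2 in parental cells, but a SAP30-KO1 Pol II summit lay 1707 and 1721 bp away, outside the distance that counts. The third, 2355 bp upstream of MAPK13, a p38 MAP kinase gene, ranked 44.4 and 47.1, and the nearest SAP30-KO1 summits were 68209 and 68174 bp away. Of the 6 gained regions, the best-ranked was 1707 bp upstream of EXT1, a heparan sulfate polymerase gene, with SAP30-KO1 Pol II ranks of 28.1 and 67.0 and a parental summit 1077 and 1080 bp away. At the CCRL2 and EXT1 regions a summit of the other line thus lay just past the 1000 bp limit, and at the RPS24 and MAPK13 regions none lay near.

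H3K4me3 was lost from regions near EIF2B2, a translation initiation factor subunit gene, OGDH, a Krebs cycle enzyme gene, and ENTREP2, with parental ranks of 66.4 and 63.2 at the EIF2B2 region and weaker ones at the others. It was gained near SPRY4 and PHLDA1, which are induced by growth factor signalling, and near ZNF706, at ranks of 86.6 to 98.2, the weak end of the lists. At the EIF2B2 region Pol II remained in all 4 libraries, at ranks of 50.3 and 30.2 in parental cells and 45.9 and 42.1 in SAP30-KO1. H3K9Ac was lost from intronic regions nearest to KLF3, USP7 and REEP3 and gained near TCIRG1, PLEKHJ1 and GABBR2, with SAP30-KO1 ranks of 29.5 and 33.3 at the TCIRG1 region. H3K9Ac ranks at these 6 regions, in the line that had the peaks, ran from 23.4 to 51.9. The nearest H3K9Ac summits of the other line lay 1128 and 1170 bp from the REEP3 region and 1393 and 1474 bp from TCIRG1. Both calls thus rest on summits just past the 1000 bp limit. The distances were 2769 and 1661 bp at PLEKHJ1, 2737 and 2729 bp at KLF3, and longer at USP7 and GABBR2. For H3K4me3 they were 87969 and 1783 bp at SPRY4, and 3430 bp or more at the others.

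Where a mark was present in all 4 libraries, its rank was compared between the lines. Median Pol II ranks were 47.4 and 41.4 in parental cells and 44.8 and 47.2 in SAP30-KO1, which overlapped. Median H3K4me3 ranks were 55.2 and 57.3 against 63.0 and 58.5, and median H3K9Ac ranks 25.8 and 26.5 against 29.3 and 27.3, in both cases without overlap and with p = 0.33 by the exact permutation test. The H3K4me3 shift was 4.49 percent of the list, beside 6.01 over all distal H3K4me3 regions, and the H3K9Ac shift 2.14 beside 2.56. Counting regions whose 2 SAP30-KO1 ranks were both worse than both parental ranks, there were 330 of 706 for H3K4me3 (46.7%), beside 35.2% of all H3K4me3 regions, and 24 with both better (3.40%), beside 9.21%. For H3K9Ac 473 of 1596 were worse (29.6%), beside 24.5%, and 220 better (13.8%), beside 15.1%. For Pol II 138 of 567 were worse (24.3%), beside 23.9%, and 95 better (16.8%), beside 15.6%, so the Pol II shares were close to those over all regions. In these counts the shares over all regions join promoters and distal regions, and no share over distal regions alone was counted. Ranks over all regions were taken inside the span, and those of the distal SAP30 and SIN3B regions within 1000 bp of it. The 2 shares are thus not strictly alike.

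By place, 1105 regions (57.9%) lay in introns, 683 (35.8%) between genes, 65 in other exonic sequence, 53 in 3′ UTRs and 4 in 5′ UTRs. The nearest coding start site was a median of 19105 bp away (quartiles 6785 and 48388 bp), against 25327 bp for SAP30-only distal regions, and 1725 regions (90.3%) had one within 100 kb. Intergenic regions carried Pol II at 65.7% and 71.2% in parental cells and at 57.2% and 48.9% in SAP30-KO1, and intronic ones at 42.9% and 51.6% and at 33.5% and 29.3%. H3K4me3 was found far from coding start sites as well, being present in parental cells at 44.9% and 45.4% of the 185 regions more than 100 kb from any coding start site and at 54.9% and 53.5% of the 368 within 5 kb. Start sites of other genes did not count in that distance. A start of a gene neither coding nor lncRNA lay within 1000 bp of 60 regions. Of these, 48 (80%) had H3K4me3 in both parental libraries, against 41.4% of the rest. Chromosome 19 held 2.55 regions per Mb and chromosome 17 1.80, against 0.167 on chromosome 4, and the regions made up 26.9% of distal SAP30 regions on chromosome 19 and 9.41% on chromosome 4.

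The regions often came in groups. With members joined when within 50 kb of each other, 790 of 1910 (41.4%) had a neighbour, in 308 groups, and 416 (21.8%) had one within 12.5 kb. The largest group held 11 regions over 113780 bp (chr10:80838959-80952738) in introns of ZMIZ1, which encodes a PIAS-like coactivator, and 2 more lay upstream of the gene. Of the 13 regions nearest to ZMIZ1, 11 and 11 had H3K9Ac in parental cells and 10 and 13 in SAP30-KO1, 4 and 4 had Pol II in parental cells and 1 and 1 in SAP30-KO1, and none had H3K4me3 in any library. The 4 Pol II regions lay 69009 to 82974 bp into the gene. Their parental ranks ran from 41.6 to 67.0, and both peaks that remained in SAP30-KO1, 1 in each library at different regions, ranked 99.4 and 96.0. The regions at 79979 and 81157 bp shared their Pol II summits and are not separate losses.

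**Figure D3:**
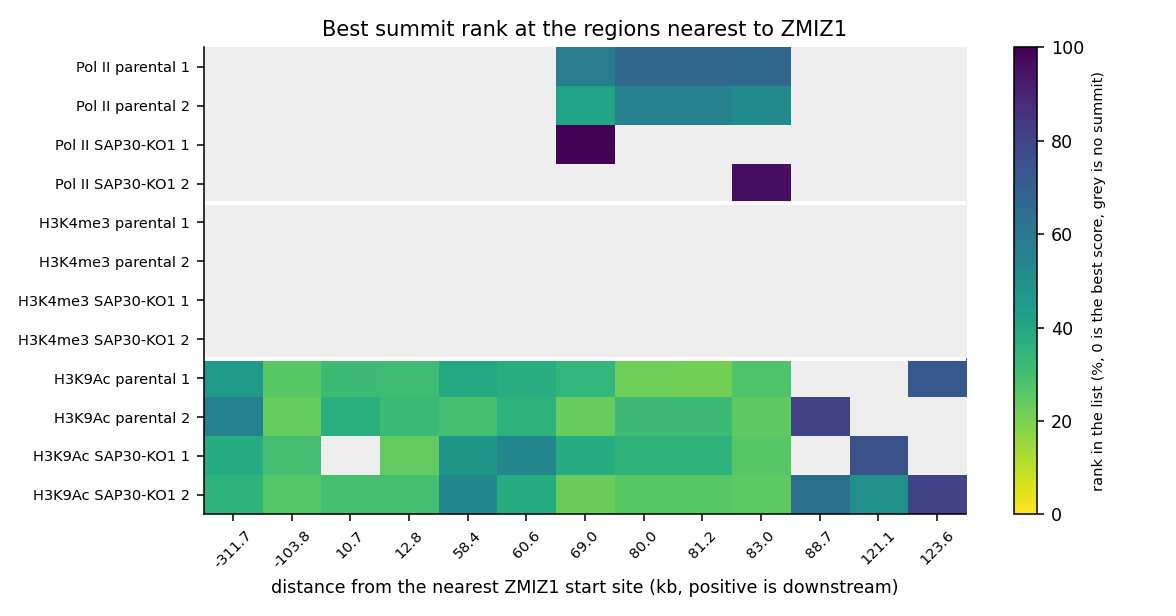
Regions nearest to ZMIZ1, in order of and labelled by distance from its nearest start site (kb, x axis, positive is downstream). The y axis lists each Pol II, H3K4me3 and H3K9Ac library of parental and SAP30-KO1 cells. Colour is the rank of the best peak (percent of list, 0 strongest), and grey is no peak. H3K9Ac peaks are found at most regions in both lines, whereas Pol II peaks lie at 4 regions in each parental library and at 1 in each SAP30-KO1 library.

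MYC, the proto-oncogene transcription factor, was the nearest coding gene of 10 regions, 72381 to 819097 bp downstream of its nearest start site. H3K9Ac was present at 10 and 10 of them in parental cells and at 10 and 9 in SAP30-KO1, Pol II at 2 and 3 against 2 and 2, and H3K4me3 at 2 and 4 against 2 and 3. The Pol II counts were alike although the regions were not the same. The region 72381 bp away had parental Pol II ranks of 58.6 and 71.9 and no SAP30-KO1 peak, and that at 114191 bp had SAP30-KO1 ranks of 83.3 and 48.4 and no parental peak, with the nearest parental summits 2350 and 2080 bp away. Within 100 kb lay the first of the 10 alone, so that the nearest gene is a label of position and says nothing of which gene a region acts on.

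Genes with 5 or 6 regions came next. HPCAL1, a neuronal calcium sensor family gene, had 6 regions, with Pol II at 3 and 3 in parental cells and 3 and 2 in SAP30-KO1. BCAR3, an adaptor of integrin and growth factor signalling, had 5, with Pol II at 2 and 3 against 2 and 2. ASAP2, an ARF GTPase-activating protein gene, had 5, with Pol II at 4 and 4 against 2 and 2, and DUSP5, a nuclear phosphatase of ERK, had 5, with 3 and 3 against 2 and 2. The remaining genes of that rank were BHLHE40, RFLNA, ABR, ENSG00000255872, SOX9, ARRDC2 and ACTN4. In each of HPCAL1, BCAR3, ASAP2 and DUSP5, H3K9Ac was at 4 or more regions in every library, and no H3K4me3 count passed 1. The others were not all alike. BHLHE40 and ARRDC2 had H3K4me3 at 2 regions in every library, and RFLNA, SOX9 and ACTN4 at 1 or 2. Pol II was at 2 regions of ARRDC2 in every library, and at 1 and 2 of ABR in parental cells against 2 and 1 in SAP30-KO1. H3K9Ac was at 4 and 5 regions of ABR and at 4 and 4 of ARRDC2 in parental cells, and at 3 of each in both SAP30-KO1 libraries. Among all 1413 nearest coding genes, 1086 had 1 region. SAP30-only distal regions lay near the same genes, with 9 at ZMIZ1, 7 at MYC, 6 at HPCAL1, 4 at BCAR3, 7 at ASAP2 and 3 at DUSP5. Grouping was not compared between the 2 sets.

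Most of the nearest genes had Pol II, H3K4me3 and SAP30 at their own promoters. Promoter Pol II was present in both parental libraries at 1075 of the 1413 (76.1%), beside 57.7% of all 20098 coding genes and 68.3% of genes nearest to SAP30-only distal regions. Promoter H3K4me3 was present at 81.5%, beside 63.8% and 74.9%, and promoter SAP30 at 77.6%, beside 61.2% and 71.9%. SIN3A, absent from the distal regions by rule, was at the promoter of 46.7% of their nearest genes, beside 31.5% of all coding genes and 37.0% of genes nearest to SAP30-only distal regions.

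Lists of genes of known pathways were laid over the nearest genes, counting a gene when it was nearest to a region within 100 kb. Of all coding genes 6.51% met that condition, and of the 11595 with promoter Pol II in parental cells 8.64% did. Genes with large neighbourhoods free of other genes have more room to be the nearest gene, and list counts were not adjusted for it.

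**Figure D4:**
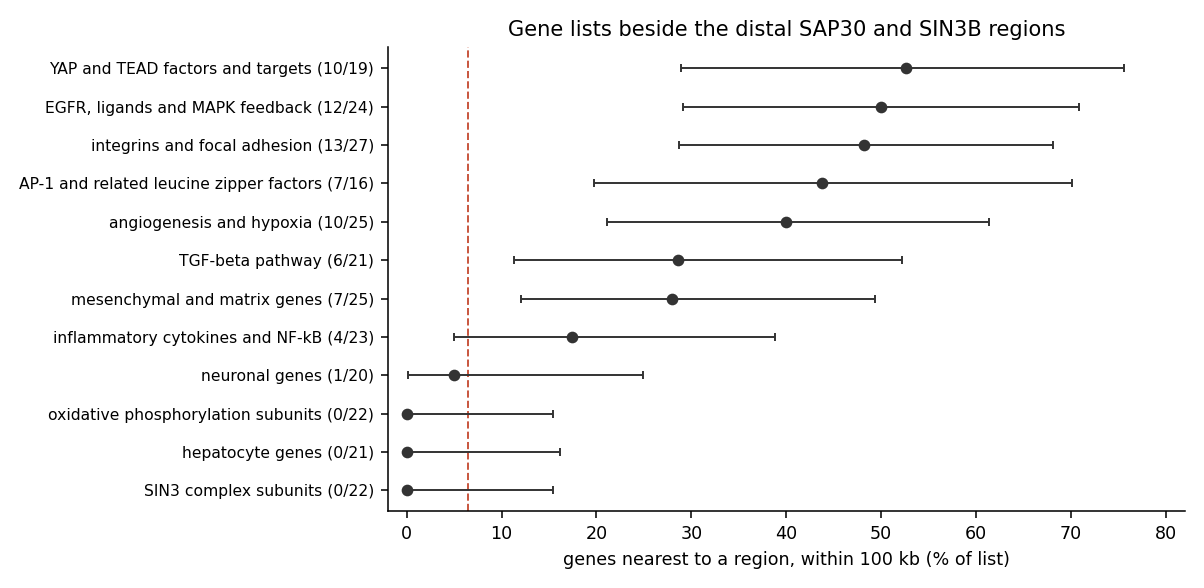
Share of each gene list that was the nearest coding gene of a distal SAP30 and SIN3B region within 100 kb (percent of list, x axis), with exact 95% binomial intervals. The dashed line is the 6.51% of all coding genes, and the YAP and TEAD, EGFR and MAPK, integrin, AP-1 and angiogenesis lists lie at 40% or more.

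Of 19 YAP and TEAD genes, 10 had a region (52.6%, 28.9 to 75.6%). CCN1, a secreted matrix protein and classic YAP target, had 2 regions 26505 and 31859 bp downstream with Pol II and H3K9Ac in all 4 libraries and no H3K4me3. Pol II at the nearer one ranked 27.6 and 30.0 in parental cells and 20.2 and 23.9 in SAP30-KO1, better in SAP30-KO1 without overlap. The CCN2 region, 2122 bp from the start site of a gene of the same family, had all 3 marks in all 12 libraries, with Pol II ranks of 48.3 and 50.7 against 41.9 and 14.0. TEAD1, the DNA-binding partner of YAP, had 2 regions, and AJUBA, AMOTL2 and ANKRD1 had 1 each.

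Of 24 genes of EGFR, its ligands and MAPK feedback, 12 had a region (50%, 29.1 to 70.9%). EGFR, the epidermal growth factor receptor gene, had 3, all with H3K9Ac and H3K4me3 in every library, and Pol II at 2 and 2 in parental cells and 1 and 0 in SAP30-KO1. The one 23822 bp downstream of the nearest EGFR start site had H3K9Ac ranks of 2.63 and 5.48 in parental cells. In SAP30-KO1 they were 23.5 and 20.1, without overlap. Its Pol II ranks were 62.4 and 51.1 against 78.6 and no peak. EPHA2, an ephrin receptor gene, had 4 regions with Pol II at 3 in every library. SPRED2, an inhibitor of RAS signalling, had 4 regions with H3K9Ac in every library and neither Pol II nor H3K4me3 in any. PLAU, the urokinase gene, had 3, and TGFA, an EGFR ligand gene, 2 with Pol II at 1 and 1 in parental cells and at none in SAP30-KO1.

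Of 27 integrin and focal adhesion genes, 13 had a region (48.1%, 28.7 to 68.1%). ACTN4, an actin cross-linker gene, had 5, in a group of 7 shared with CAPN12 (chr19:39127621-39211036), with H3K9Ac at 4 in each library and Pol II at 1 and 1 in parental cells and 0 and 0 in SAP30-KO1. PTK2, the focal adhesion kinase gene, had 4, MYH9, a non-muscle myosin heavy chain gene, 3, and ITGA3, the integrin α3 subunit gene, 3 with Pol II at 3 in every library. ITGB1 had 2, with Pol II at 2 and 2 against 1 and 2.

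Of 16 AP-1 and related leucine zipper genes, 7 had a region (43.8%, 19.8 to 70.1%). JUN had 4, 28604 to 99378 bp away, each with an AP-1 motif within 150 bp of the best-ranked SAP30 summit and each with H3K9Ac in every library, and none with H3K4me3. FOSL1, the FOS-family gene much used by mesenchymal breast cancer cells, had 2, 2441 and 8527 bp upstream, with all 3 marks in all 12 libraries. Pol II at the farther one ranked 35.6 and 27.5 in parental cells and 51.8 and 29.2 in SAP30-KO1, which overlapped. FOSL2 had 2, and ATF3, FOSB, JUNB and JUND 1 each.

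Of 25 angiogenesis and hypoxia genes, 10 had a region (40%, 21.1 to 61.3%). BHLHE40, a hypoxia-induced repressor gene, had 5, with Pol II at 3 and 2 in parental cells and 2 and 3 in SAP30-KO1. SLC2A1, the glucose transporter gene whose window is printed above, had 2 with H3K9Ac in every library, 1 of them with Pol II at ranks of 75.2 and 61.1 in parental cells and none in SAP30-KO1. VEGFA, the vascular endothelial growth factor gene, had 1, 2093 bp downstream of its nearest start site. Its peaks were weak, since Pol II was found in parental replicate 2 alone, at rank 95.6. NRP2, a VEGF co-receptor gene, had 1 that lost Pol II. ANGPTL4, KDR, LDHA, NDRG1, NRP1 and PDGFA had 1 each.

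The other lists were lower. TGF-beta pathway genes had 6 of 21 (28.6%), with 2 regions each at ID1 and SMAD3 and 1 each at LTBP2, PMEPA1, SKI and SMAD7. Mesenchymal and matrix genes had 7 of 25 (28%), among them CD44 with 2 regions and COL1A1, COL4A2, COL5A1, SNAI2 and TGFBI with 1 each. Both ID1 regions had Pol II in parental replicate 2, 1 had it in replicate 1, and neither had it in SAP30-KO1. Inflammatory cytokine and NF-kB genes had 4 of 23 (17.4%), namely LIF with 2 regions and CSF2, IL11 and NFKB2. Neuronal genes had 1 of 20, GRIN1, and the SIN3 complex subunits, oxidative phosphorylation subunits and hepatocyte genes had 0 of 22, 0 of 22 and 0 of 21, with upper limits of 15.4%, 15.4% and 16.1%. The SIN3 and oxidative phosphorylation genes all had promoter Pol II (22 of 22 in each list), and among the hepatocyte genes 1 had it.

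Of the 10 genes that the study followed, RDX and ARTN were each nearest to a region within 100 kb. That condition was met by 6.51% of all coding genes, and 10 genes are too few to compare with this share. RDX, which encodes the membrane-cytoskeleton linker radixin, had 1 at 66530 bp, and ARTN, a neurotrophic factor gene, had 1 at 97696 bp (chr1:44300141-44302452), which was also the closest region to IPO13 at 111326 bp. PDGFB, PDGFD, CLDN1, ADM2, NOTCH3, IPO13, HSPA6 and SAP30 itself were nearest to none. HSPA6, an inducible heat shock protein gene, nevertheless had the closest region of the 10, at 15620 bp (chr1:161509844-161510056), which lay nearer to FCGR3A. The closest region to PDGFB lay 95713 bp away, beside CBX7, and that to SAP30 more than 9 Mb away, at 9078471 bp.

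Strong Pol II was also found at some small RNA genes, a class whose start sites the rule did not consult. A start site of an snRNA, miRNA, snoRNA, rRNA or miscellaneous small RNA lay within 1000 bp of 24 regions (1.26%), among them 10 with a miRNA and 7 with an snRNA. The region over RNVU1-18, a U1 small nuclear RNA gene (chr1:149223418-149224649, nearest coding gene H3-7), had Pol II ranks of 0.00965 and 0.0391 in parental cells and 0.0171 and 0.0271 in SAP30-KO1. These are among the top peaks of the whole lists in both lines, and the lines overlapped. Its H3K4me3 ranks were far weaker, 54.2 and 61.6 in parental cells and 59.8 and 58.2 in SAP30-KO1. The region 176 bp from the start of RNU1-122P, a U1 pseudogene (chr1:147807062-147807229, nearest coding gene PPIAL4A), had Pol II ranks of 0.285 and 0.380 in parental cells and 1.32 and 1.75 in SAP30-KO1, without overlap. U1 genes have near-identical copies elsewhere, so both peaks are uncertain in place.

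The region over MIR21 (chr17:57914571-57920430, nearest coding start site TUBD1) spanned the precursor of miR-21, an abundant miRNA of solid tumours, and carried all 3 marks in all 12 libraries. Pol II ranked 1.48 and 0.535 in parental cells and 1.10 and 0.542 in SAP30-KO1, which overlapped, whereas H3K4me3 ranked 16.8 and 16.2 against 31.7 and 31.1, without overlap. The region over MIR23A and MIR27A had Pol II at ranks of 89.0 and 71.9 in parental cells and none in SAP30-KO1, and the region near MIR30A had no Pol II in any library but H3K4me3 and H3K9Ac in all of theirs. RNU6ATAC, RNU6-1 and RNA5S17 had regions with all 3 marks in all 12 libraries. Their Pol II was far weaker than that at MIR21, with ranks of 12.8 to 37.7 at RNU6ATAC and RNU6-1 and 43.9 to 74.1 at RNA5S17.

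Base composition set the regions between SAP30-only distal regions and promoters. In 301 bp windows around the best-ranked SAP30 summit, the median GC content was 57.1%, against 52.2% for SAP30-only distal regions and 67.8% for promoter regions, and the median ratio of observed to expected CpG was 0.330 against 0.281 and 0.812. A CpG ratio over 0.6, as in CpG islands, was found in 375 regions (19.6%), against 11.6% and 84.0%.

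The AP-1 motif TGANTCA was the most frequent of the 18 motifs searched on both strands. It was found in 774 regions (40.5%, 38.3 to 42.8%), in 45.2% of SAP30-only distal regions, in 6.68% of promoter regions and in 23.8% of windows of the same length over all merged SAP30 regions. Matches peaked at the SAP30 summit, with 6.44% of regions in the bin 25 to 50 bp from it and 1.41% in the outermost bin. SAP30-only distal regions shared this peak, with 6.44% in the bin 0 to 25 bp and 1.58% in the outermost. The SP/KLF motif GGGCGG was found in 581 regions (30.4%), against 19.4% of SAP30-only distal and 65.6% of promoter regions. It had no peak at the summit of the 581, but in SAP30-only distal regions it rose from 1.54% in the outermost bin to 2.94% at 25 to 50 bp. Its difference from SAP30-only regions was 11.1 points, or 6.37 with those regions standardised to the same SAP30 ranks. ETS (CCGGAAG) was found in 6.18%, against 3.44% and 16.2%, and TEAD (CATTCCA) in 6.49%, against 8.39% and 1.90%. CTCF (CCANNAGGG) was found in 11.3%, against 8.28% and 7.17%, and the MYC and MAX E-box (CACGTG) in 10.9%, against 10.4% and 7.75%. Standardised in that way, the ETS difference fell from 2.74 to 1.61 points, and that of the E-box turned from 0.461 to -4.60 points. ZEB/SNAI (CAGGTG) was found in 478 regions, NRF2/BACH (TGACNNNGC) in 22.5%, RUNX (TGTGGTT) in 8.69% and FOX (TGTTTAC) in 6.54%. Short motifs match by composition alone, and a match is not evidence that the factor was bound.

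**Figure D5:**
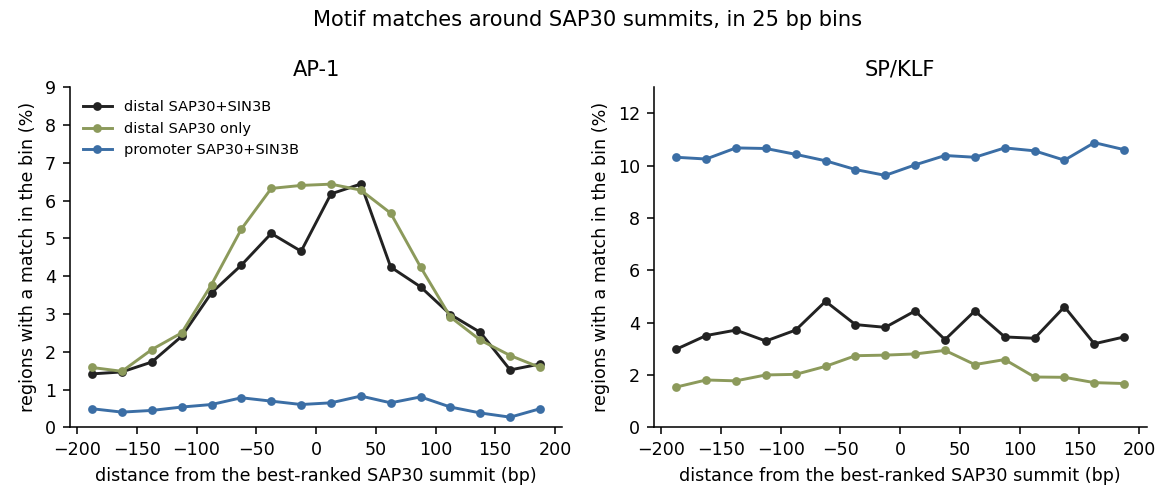
Share of regions with an AP-1 (left) or SP/KLF (right) match (percent of regions, y axis) in 25 bp bins around the best-ranked SAP30 summit (bp, x axis), for distal SAP30 and SIN3B regions, SAP30-only distal regions and promoter SAP30 and SIN3B regions. AP-1 rises to 6.44% near the summit of the distal SAP30 and SIN3B regions, and to 6.44% near that of SAP30-only distal regions. SP/KLF has no peak at the summit of the distal SAP30 and SIN3B regions and is highest at promoters.

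AP-1 motifs and CpG-rich sequence divided the set. Of the 375 CpG-rich regions 37 (9.87%) had AP-1, against 48.0% of the others, leaving 737 regions with AP-1 only, 338 with CpG-rich sequence only and 798 with neither. CpG-rich regions carried Pol II at 83.7% and 87.2% in parental cells and at 76.5% and 68.8% in SAP30-KO1, and H3K4me3 at 93.3% and 93.3% against 90.9% and 93.6%. Regions with AP-1 carried Pol II at 44.6% and 51.4% against 33.6% and 29.2%, and H3K4me3 at 31.1% and 33.3% against 27.9% and 25.3%. All regions that were not CpG-rich, with or without AP-1, had shares close to these. They carried Pol II at 44.2% and 52.7% against 35.2% and 29.9%. Their H3K4me3 shares were 34.9% and 35.7% against 30.6% and 28.9%. Marks at the 798 regions with neither feature were not counted apart. H3K9Ac had means of 96.3% in CpG-rich and 92.1% in AP-1 regions of parental cells and of 96.7% and 91.9% in SAP30-KO1, a smaller gap. Both SAP30-KO1 libraries were below both parental libraries for Pol II in each class, by means of -12.8 points in CpG-rich regions and -16.6 points in regions with AP-1, and these are descriptions over 2 libraries a line, with no test.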

How the data were processed

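ChIP-seq of SAP30, SIN3A, SIN3B, Pol II, H3K4me3 and H3K9Ac was analysed from 18 peak lists, 2 libraries a group. Per the labels and methods, crosslinked MDA-MB-231 chromatin was sonicated and sequenced, and the submitters' processing notes name FastQC 0.11.2, Bowtie2 2.3.3.1, Picard, MACS2 2.1.0 and hg19. The deposited lists give each library's peak summits and the −log10 q-value that MACS2 wrote, filtered by the authors at q = 0.05. The control used in peak calling is not given in the sources used here. The 8 input and 4 histone H3 samples were not analysed here. Scores depend on depth, so they served only as ranks within a list.

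Summits were extended by 500 bp, merged within a protein where both replicates had one, and merged across proteins. GENCODE release 44 lifted to GRCh37 gave start sites and places. Distances to a gene were to the nearest start of any of its transcripts tagged basic, which can lie inside the gene. A mark was present within 1000 bp of a region's summit span. Lines were compared by exact two-sided permutation over libraries, and sets of regions by exact sign flips over the 4 libraries of a mark. Regions are not replicates, and binomial intervals are exact (Clopper-Pearson). Steps were tested on simulated lists, with Python 3.11.15, pandas 2.3.3, scipy 1.17.1 and pysam 0.24.0. Named regions were the 10 with the best mean SAP30 and SIN3B ranks, up to 3 lost and gained per mark, the 10 genes nearest to most regions, up to 5 genes of each list with the most regions, the genes the study followed, and the 5 regions with all marks in all libraries and the best Pol II ranks. Other genes were named after their values were seen. Some named genes and regions are not reported here. The regions and lists were chosen with earlier results of these data known.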

Additional observations from a re-analysis of the deposited data

How the results depend on the processing

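In all, 584 values under 32 other settings were computed for 44 results. For the main results 426 were labelled the same, 77 moved and 6 reversed. For the parental mark shares 33 were the same and 42 moved. Differences in mark share counted as the same unless their sign reversed, whatever their size. That of H3K9Ac between the lines, 0 points in the main setting, could therefore not reverse. Counts had to stay within 1.5 times and parental shares within the spread of the libraries. Other values had to stay within an interval around the main value. In none of these settings could an exact permutation test of the lines pass its threshold, since 2 libraries a line allow no less than p = 0.33. The excess of the regions over SAP30-only distal regions kept its direction throughout, at 16.2 to 33.5 points for Pol II, at 10.6 to 26.4 points for H3K4me3 and at 5.80 to 36.9 points for H3K9Ac. The Pol II difference of SAP30-KO1 from parental cells ran from -19.0 to -2.57 points (-19.0 to -11.5 leaving out 1 library), that of H3K4me3 from -5.08 to -1.86 and that of H3K9Ac from -2.41 to 3.38. With the replicate block the Pol II difference was -15.3 points, from -8.59 for number 1 and -21.9 for number 2, and the block changed no other call. The deviations of same-numbered libraries correlated over regions at -0.0753 (Pol II), -0.0338 (H3K4me3) and -0.00703 (H3K9Ac). Such values cannot tell whether same-numbered libraries shared a culture or batch, since that could shift all regions alike.

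The number of regions was 5960 with a summit of either replicate, 458 with the better-ranked 50% of the protein lists, 133 with those lists at the length of the shortest, and 1990 to 4321 leaving out 1 replicate of SAP30 or SIN3B. Differences from distal regions with all 3 proteins reversed, for H3K9Ac to -0.828 points with either replicate and -0.395 with the better-ranked 50% of the mark lists, for Pol II to 4.77 and 1.94 and for H3K4me3 to 0.916 and 0.560 with the better-ranked 50% of the protein lists and with those at the length of the shortest. The cause was not tested.

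With either replicate, 356 lost and 19 gained Pol II, 113 and 18 H3K4me3, and 79 and 59 H3K9Ac. With the better-ranked 50% of the protein lists, 24 lost Pol II, 5 lost and 1 gained H3K4me3, and 1 lost and 1 gained H3K9Ac. At the length of the shortest protein list, 7 lost and 1 gained Pol II, 1 lost and 0 gained H3K4me3, and 0 lost and 0 gained H3K9Ac. Leaving out 1 library gave 149 to 291 losses and 8 to 14 gains of Pol II, 46 to 86 and 3 to 18 of H3K4me3, and 11 to 37 and 12 to 33 of H3K9Ac, the highest counts, apart from 33, being those without SIN3B replicate 2. With the better-ranked 50% of the lists that hold the mark, 4 losses and 0 gains of Pol II, 0 and 0 of H3K4me3 and 2 and 3 of H3K9Ac were left. Mark lists at the length of the shortest left 21 H3K4me3 losses, and marks tied to the best SAP30 summit gave 8 H3K4me3 gains and 17 H3K9Ac losses. Extending summits by 100 bp gave 13 Pol II and 10 H3K4me3 gains and 14 H3K9Ac losses, 250 bp gave 19, 10 and 16, and 1000 bp gave 3 Pol II gains, 5 H3K9Ac losses and 7 H3K9Ac gains. Start site windows of 3000 bp gave 3 Pol II and 7 H3K9Ac gains.

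The median distance to the nearest coding start site was 15371 bp, 15307.5 bp and 22169.5 bp with summits extended by 100, 250 and 1000 bp, 21839.5 bp with either replicate, 23584 bp with start site windows of 3000 bp, 12401.5 bp with the better-ranked 50% of the protein lists, 14485 bp with those at the length of the shortest, and 18308 to 20982 bp leaving out 1 replicate. The share in introns was 54.4% and 53.4% under those cuts of the protein lists. In windows of 50 bp on each side AP-1 was found in 20.5% of regions, SP/KLF in 13.5%, ETS in 2.72% and the E-box CACGTG in 5.97%, and the differences from SAP30-only regions were -2.23 points for AP-1, 3.86 for SP/KLF and 1.23 for ETS. In windows of 250 bp the shares were 46.2%, 37.4%, 8.80% and 14.0%, and the ETS difference 4.07 points. Standardised to SAP30 rank, the differences were 6.37 points for SP/KLF, 1.61 for ETS and -4.60 for the E-box, which was 0.461 without standardisation. The fixed width of 1000 bp and the omission of the 24 regions near small RNA start sites were chosen after seeing the data, and the latter left 1886 regions. Depth could not be assessed from peak lists, and whether a peak fell short for want of reads was not tested.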
